A study of Oncorhynchus kisutch with 9 samples.

Results

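Of the 8736 cDNA spots on a salmonid microarray, 33 (0.378%) set the ration-fed growth hormone transgenic liver pool apart from both other liver pools, while those other pools differed by less than the same limit. The spots were selected on the measured ratios themselves. A spot qualified when its log2 ratio of the ration-fed over the control pool (R over C) and its log2 ratio of the full-ration over the ration-fed pool (T over R) were each at least 0.5 in size and opposite in sign. Its log2 ratio of the full-ration over the control pool (T over C) also had to be below 0.5 in size. A log2 ratio of 0.5 is a 1.41-fold difference. The 33 spots are cDNAs with no gene name in the annotation used here, so they are described by their spot identifiers. Their sequences were not used here.

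The RNA came from livers of adult coho salmon (Oncorhynchus kisutch), flash-frozen, and 3 conditions were compared. The control pool (C) was non-transgenic fish, the ration-fed pool (R) was GH (growth hormone) transgenic fish described as ration-fed, and the full-ration pool (T) was GH transgenic fish on full ration. Each pool held equal quantities of RNA from 5 fish. The labels do not state the amounts fed, the exact age, the transgene's promoter or the transgenic line. There were 9 arrays with 2 dyes each, 3 for each of the 3 comparisons, and 1 of the 3 had the dyes in the opposite order. The arrays of a comparison repeat the same pooled RNA, so no condition has a replicate. Every spread given here is between hybridisations and none covers variation between fish, and therefore no test was made. In whole liver, a different share of cells of a type and a different amount of RNA per cell cannot be told apart.

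Growth hormone is released by the pituitary and acts on the liver through its receptor, where it drives the production of insulin-like growth factor 1, the main circulating mediator of body growth. The liver also answers to how much an animal eats, through insulin, glucagon and other nutrient signals that set glucose production, lipid synthesis and protein turnover. Growth hormone transgenic salmon grow fast and eat much when food is not limited. Where transgenic fish are kept at different feeding levels, the comparison between them addresses feeding. The comparison of each with non-transgenic fish addresses the transgene together with any difference in feeding. A spot that differs in the ration-fed pool alone differs in both comparisons and not in the third.

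The deposited values were log2 ratios, and no label states which dye is in the numerator. Direction 1 stands for a positive R over C and a negative T over R, and direction 2 for the reverse. With Cy5 as the numerator, a direction 1 spot has the ration-fed pool above both others, and with Cy3 as the numerator it has the ration-fed pool below both others. The rule was applied to centred values. For these, the median of each array was subtracted, and the sign was turned where the first-named pool carried Cy3. The names R over C, T over R and T over C therefore hold as written only if Cy5 is the numerator. With Cy3 as the numerator, every ratio is inverted. The arrays of a comparison were then averaged so that both dye orders had equal weight. A trend with dye that all 9 arrays share stays in single centred arrays and cancels in that mean only as far as it is equal in both orders. The same results are therefore also given with the dye trend removed, that is, after subtracting from each array a smooth curve on the mean of the 9 arrays. This removal assumes that the ratios follow the dye labels.

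Of the 33 spots, 12 lay in direction 1 (0.137% of all spots) and 21 in direction 2. This split moved when the only array of opposite dye order in a comparison was left out, which removes the dye balance there. Direction 1 became the larger part, with 42 of 49 spots, without R over C array 3. It stayed the smaller part without T over R array 3, at 3 of 42, and without T over C array 1, at 5 of 11. With the dye trend removed it held 8 of 42, 11 of 36 and 8 of 32 without the same arrays. The spots as a whole gave 419 with an R over C of at least 0.5 in size (4.8%) and 779 with a T over R of at least 0.5 in size (8.92%). Both ratios belong to the rule, so these shares are background and nothing is read from them. By a rule of the same form, the control pool was set apart at 218 spots (2.5%) and the full-ration pool at 436 spots (4.99%). The ration-fed pool was thus the one set apart at the fewest spots on centred values. With the dye trend removed the control pool was set apart at 198 spots (2.27%) and the full-ration pool at 324 (3.71%). The counts for these 2 pools were not taken under other ways of processing. Leaving out T over C array 1, also of opposite dye order, lowered the count of 33 to 11. With the dye trend removed the count without that array was 32. With the trend removed, 8 of 31 spots lay in direction 1.

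**Figure D1:**
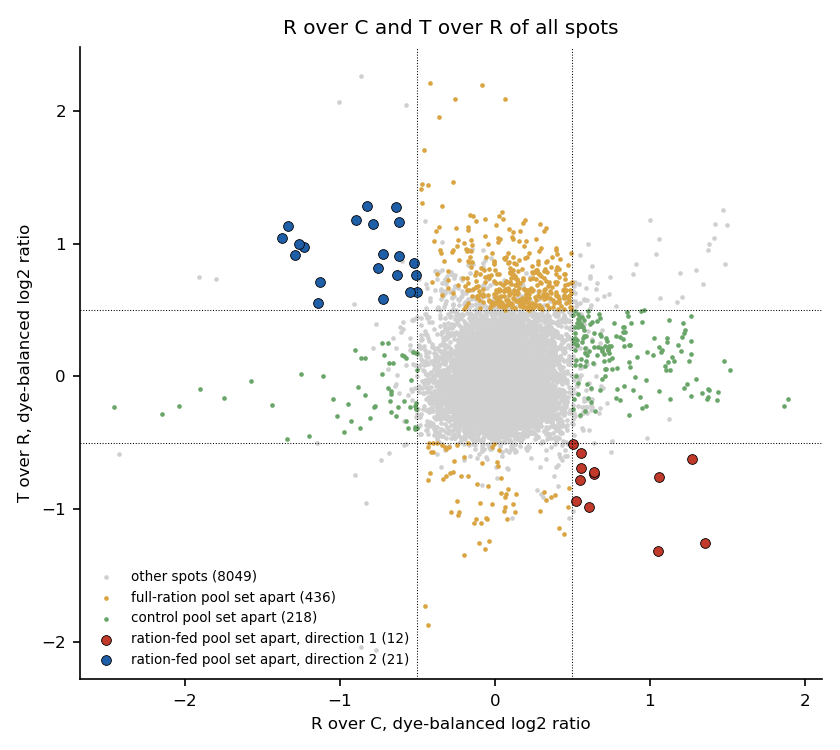
Each point is 1 of the 8736 spots, with R over C on the horizontal axis and T over R on the vertical axis, both as dye-balanced log2 ratios of centred arrays. Dotted lines mark 0.5 in size; the 12 direction 1 members lie at the lower right and the 21 direction 2 members at the upper left, and the spots that set the control pool (218) or the full-ration pool (436) apart are coloured separately.

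Among the 33 members, R over C ran from 0.503 to 1.38 in size, with a median of 0.718, which is 1.65-fold. T over R ran from 0.510 to 1.31 in size, with a median of 0.851, which is 1.80-fold. T over C had a median size of 0.298, or 1.23-fold, and ran from 0.054 to 0.490. Over all spots the median sizes were 0.139 for R over C, 0.179 for T over R and 0.206 for T over C, so in T over C the members were not closer together than an ordinary spot. A 2-fold difference was reached by 11 of the 33 members in R over C, where 0.996% of all spots on the array reached it. In T over R it was reached by 9 members, where 1.04% of all spots on the array reached it, and 4 members reached it in both. These sizes chose the members and are given as a description, and no share over all spots was taken for both ratios together.

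The ration-fed pool lay farther from the full-ration pool than from the control pool at 22 of the 33 members, made up of 9 of 12 in direction 1 and 13 of 21 in direction 2. At 20 members the full-ration pool lay on the far side of the control pool, away from the ration-fed pool. These were 9 of the 12 in direction 1 and 11 of the 21 in direction 2. At the remaining 13 the full-ration pool lay between the control pool and the ration-fed pool. These sides are loosely held, since the centred T over C was larger than its SD over the 3 arrays at 1 member and had the same sign on all 3 arrays at 1 member, with a median SD of 0.901. After removal of the dye trend, T over C had 1 sign on all 3 arrays at 22 members, and the full-ration pool lay on the far side of the control pool at 18. At 12 members T over C and R over C were then on opposite sides of 0 on every array, which 6.27% of all spots on the array also showed. Both ratios are part of the rule, so nothing is read from this count. The other counts of sides and signs given here have no share over all spots beside them, and nothing is read from those either. The direction 2 members had the larger medians on centred arrays, with R over C at 0.752, T over R at 0.916 and T over C at 0.316. The direction 1 members had medians of 0.622, 0.749 and 0.183 for the same ratios. Removing the dye trend turned that order in T over R, to 0.783 in direction 2 and 0.885 in direction 1, and in T over C, to 0.240 and 0.273, but not in R over C, at 0.834 and 0.504. A T over C below 0.25 in size was found at 13 members. The median size over all spots, 0.206, was also below 0.25, and the share of all spots was not taken.

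**Figure D2:**
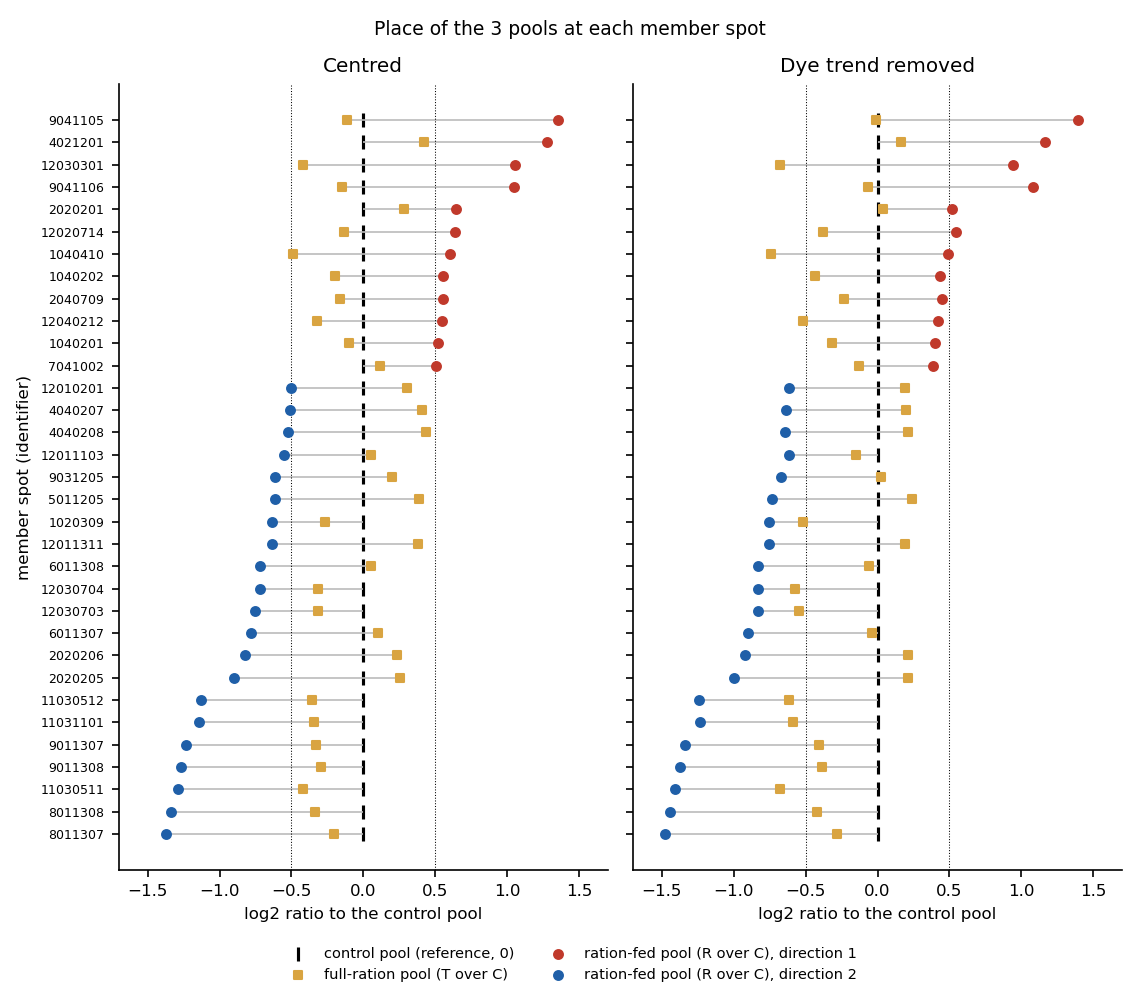
Each line is 1 of the 33 members, with the log2 ratio to the control pool on the horizontal axis and the control pool at 0, for centred arrays at the left and after removal of the dye trend at the right. Circles are the ration-fed pool, red in direction 1 and blue in direction 2, and squares are the full-ration pool; on centred arrays the squares lie within 0.5 of 0 because the rule requires it, and with the dye trend removed 9 of them lie outside. No share over all spots was taken for that count.

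The identifiers were read as places on the slide, in 48 blocks of 13 rows and 14 columns, and in this reading an odd column and the next even column hold duplicate spots of 1 cDNA. The duplicates correlated across the slide at 0.803 for R over C, 0.835 for T over R and 0.907 for T over C, whereas neighbouring spots of different pairs correlated at 0.049, 0.039 and -0.019. These correlations are over spots of the same arrays and describe the print. In this reading the 33 members lie in 24 of 4368 pairs. Both spots were members in 9 pairs, 2 in direction 1 and 7 in direction 2, and the other 15 members were alone. The 7 pairs described next are both direction 1 pairs and the 5 direction 2 pairs with the largest values, each called by its first spot. They are given as the mean of both spots on arrays 1, 2 and 3 of a comparison, and then as the dye-balanced mean with the SD over the 3 arrays. That SD is taken about the plain mean of the 3 arrays. On centred values it therefore also holds the gap between the dye orders.

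Pair 9041105 was the larger of the direction 1 pairs and had the ration-fed pool apart on every array. Its centred R over C was 0.70, 1.79 and 1.16 on the 3 arrays, with a mean of 1.20 ± 0.54 (SD over 3 arrays), or 2.30-fold. Its T over R was -1.35, -1.59 and -1.10, with a mean of -1.28 ± 0.25, or 2.44-fold. T over C was -0.48, 0.40 and 0.05, with a mean of -0.13 ± 0.44, so the control and full-ration pools differed by less than the spread between arrays. Removing the dye trend left it at 1.24 ± 0.63 in R over C, -1.21 ± 0.14 in T over R and -0.04 ± 0.26 in T over C.

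Pair 1040201, the other direction 1 pair, was close to the limit in R over C. The centred values were 1.07, 1.24 and -0.08, with a mean of 0.54 ± 0.72, which is within the spread between arrays. Its T over R was -0.05, -0.30 and -1.46, with a mean of -0.82 ± 0.75, or 1.76-fold, and the array of opposite dye order was the farthest from 0. Removal of the dye trend brought the arrays together. R over C was then 0.36, 0.45 and 0.42, with a mean of 0.42 ± 0.04, which is short of the limit. T over R was -0.85, -0.95 and -0.96, with a mean of -0.93 ± 0.06, and T over C was -0.38 ± 0.10, on the side away from the ration-fed pool.

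In direction 2, pairs 8011307 and 9011307 were the farthest from the control pool and ran almost alike. For pair 8011307 the centred R over C was -0.27, -0.49 and -2.33, with a mean of -1.36 ± 1.13, or 2.56-fold. Its T over R was 1.96, 1.79 and 0.30, with a mean of 1.09 ± 0.92, or 2.13-fold. For pair 9011307 the centred R over C was -0.33, -0.35 and -2.16, with a mean of -1.25 ± 1.05, or 2.38-fold. Its T over R was 1.88, 1.67 and 0.20, with a mean of 0.99 ± 0.92, or 1.98-fold. In both pairs the array of opposite dye order stood apart from the other two in each ratio, though all 3 arrays had the same sign. Without the dye trend, pair 8011307 had an R over C of -1.46 ± 0.13 and a T over R of 1.11 ± 0.06. Pair 9011307 then had -1.36 ± 0.04 and 1.01 ± 0.04. The full-ration pool was not level with the control pool in these pairs once the trend was removed, since T over C was -0.35 ± 0.01 and -0.39 ± 0.06, on the side of the ration-fed pool.

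Pair 2020205 had a large T over R and a smaller R over C. Its centred T over R was 2.40, 1.81 and 0.36, with a mean of 1.23 ± 1.05, or 2.35-fold. The centred R over C was 0.07, 0.34 and -1.93, with a mean of -0.86 ± 1.24, or 1.82-fold, so the sign rested on the array of opposite dye order. Leaving that array out turned the mean to 0.207. After removal of the dye trend the 3 arrays gave -1.03, -0.79 and -1.01 in R over C, with a mean of -0.96 ± 0.14, and 1.44, 1.16 and 1.30 in T over R, with a mean of 1.30 ± 0.14. T over C was then 0.12, 0.41 and 0.18, with a mean of 0.21 ± 0.15, which places the control pool between the others.

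Pair 11030511 had the same sign on every centred array in R over C, at -0.73, -0.69 and -1.71, with a mean of -1.21 ± 0.58, or 2.32-fold. Its T over R was 1.14, 1.17 and 0.47, with a mean of 0.81 ± 0.39, or 1.76-fold. It did not keep to the rule with the dye trend removed, because T over C moved from -0.39 ± 0.70 to -0.65 ± 0.09. The full-ration pool then lay near the middle between the control pool and the ration-fed pool, with R over C at -1.32 ± 0.08 and T over R at 0.65 ± 0.16.

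Pair 6011307 had the control and full-ration pools closest together among the direction 2 pairs described. Its centred R over C was -0.05, -0.14 and -1.41, with a mean of -0.75 ± 0.76, or 1.68-fold. Its T over R was 1.66, 1.91 and 0.29, with a mean of 1.03 ± 0.87, or 2.05-fold. T over C was 0.08 ± 1.14 on centred arrays and -0.05 ± 0.19 with the dye trend removed. With the trend removed R over C was -0.87 ± 0.23 and T over R was 1.01 ± 0.24, both larger than the spread between arrays. The 2 pairs with smaller values, 12030703 and 4040207, had centred R over C of -0.74 ± 0.24 and -0.52 ± 0.72 and T over R of 0.70 ± 0.68 and 0.81 ± 0.71.

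**Figure D3:**
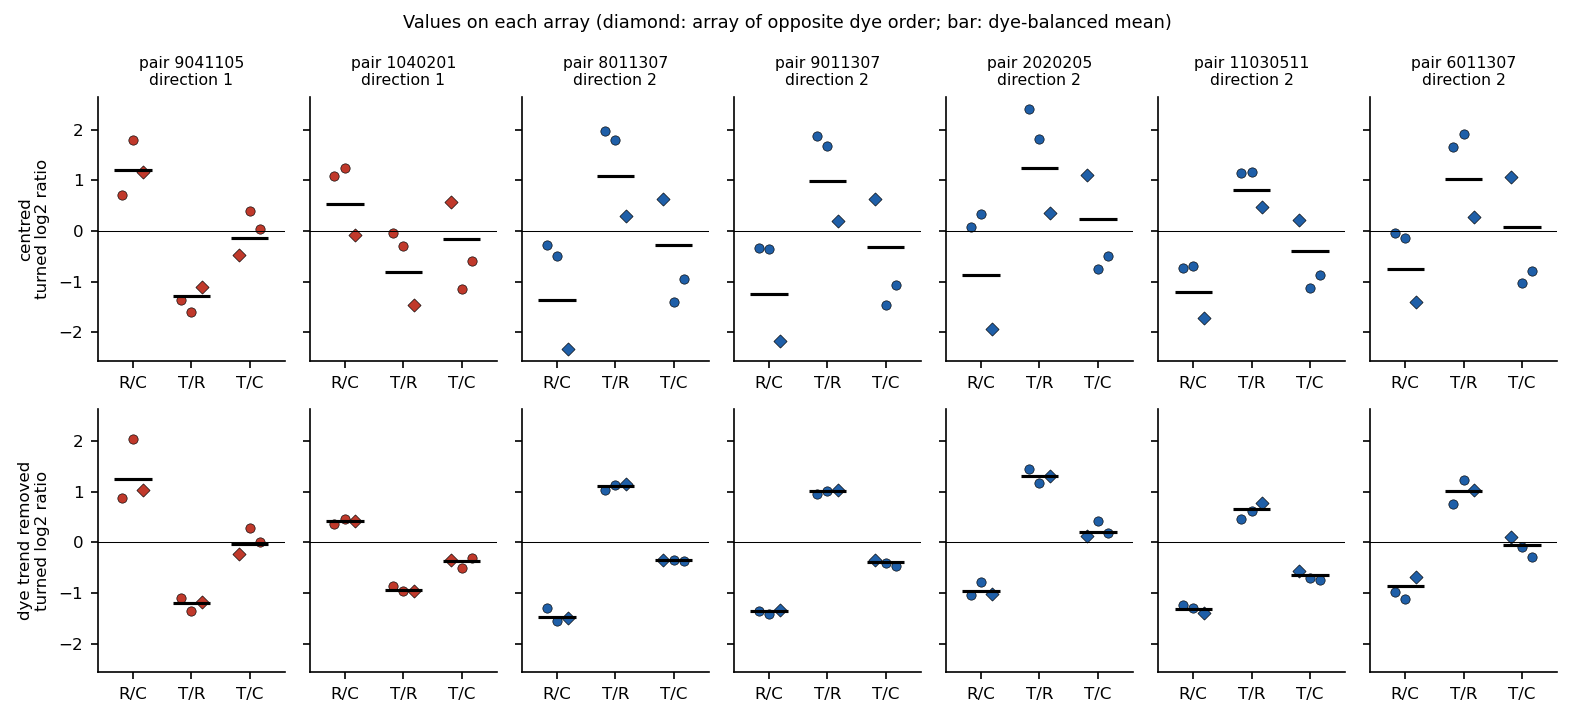
Each column is 1 of the 7 pairs and each point 1 array, with the turned log2 ratio on the vertical axis for R over C, T over R and T over C, on centred arrays above and with the dye trend removed below. Diamonds are the arrays of opposite dye order and bars the dye-balanced means; in pair 8011307 the R over C values spread from -2.33 to -0.27 when centred and from -1.55 to -1.30 with the trend removed.

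The 15 members without a member partner had a median R over C of 0.617 and a median T over R of 0.739 in size, and their partners had 0.449 and 0.633. The partner was the larger of the pair at 3 of the 15 in R over C and at 6 in T over R. These partners are defined by missing the rule, so nothing is read from their smaller medians. Of these partners 12 were short of a limit in R over C or T over R, 2 had a T over C of at least 0.5 and 1 missed on both counts. Spot 12030301 differed most from its partner, by 0.764, with an R over C of 1.06 against 0.294 and a T over R of -0.76 against -0.68. Its 3 ratios also failed most to close the loop of comparisons, with R over C plus T over R exceeding T over C by 0.721. Spot 1040410 had the largest T over C, at -0.49, beside an R over C of 0.61 and a T over R of -0.98, and its partner's T over C of -0.59 was past the limit.

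Further single members were picked out after their values were seen. Spot 4021201 had an R over C of 1.27 and its partner 1.12, while its T over R of -0.62 stood beside -0.32 in the partner. Spot 12011311 had a T over R of 1.28 and its partner 1.41, while its R over C of -0.64 stood beside -0.48 and its T over C of 0.38 beside 0.56, so that this partner missed on both counts.

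Duplicate spots share the cDNA but were chosen separately, so the partner shows how far a member's values recur on the same slides. Counting every member, the partner met the whole rule for 18 of 33 (54.5%). Each full pair enters this share once from each of its spots. In R over C and T over R alike, all 33 partners lay on the member's side. Along the member's side their median was 0.721 in R over C, with a lowest value of 0.294, and 0.910 in the distance from the full-ration pool, with a lowest value of 0.216. The spot on the other side of the member, which holds another cDNA, met the rule in 0 of 26 cases, with a median of -0.0044 in both ratios. For the spots that set the control pool apart the partner met its rule in 70.6% of cases, and for the full-ration pool in 74.8%. All partners of those 218 and 436 spots also lay on the side of their spot in both ratios of their rule. Agreement in side was thus not particular to the ration-fed pool. A member and its partner share every array and every pool, so this repeat concerns the spots and not the fish.

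**Figure D4:**
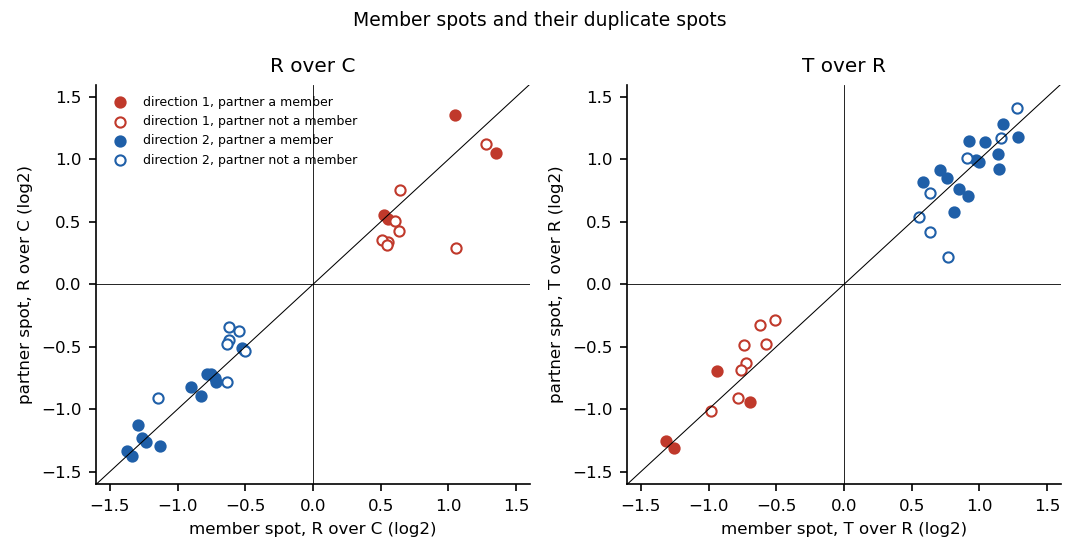
Each point is 1 of the 33 members, with its log2 ratio on the horizontal axis and that of its duplicate spot on the vertical axis, for R over C at the left and T over R at the right; filled points have a partner that is also a member. All points lie at the lower left or upper right of the origin, and the lowest partner values along the member's side are 0.294 (R over C) and 0.216 (the distance from the full-ration pool).

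The arrays did not speak alike for the members on centred values. The same sign on all 3 arrays of R over C and all 3 of T over R was found at 14 of the 33 members, where 5.28% of all spots on the array had it. Taken singly, R over C had 1 sign at 19 members and T over R at 26, without a share over all spots to set beside them. After removal of the dye trend, all 33 members kept 1 sign over the 3 arrays in both ratios, where 21.9% of all spots on the array did. The same arrays chose the members by these ratios, so these counts are given as a description only. The median SD over the 3 arrays of R over C was 0.754 for the members when centred, against 0.444 for all spots, and 0.178 with the trend removed, against 0.175. For T over R the median SD was 0.790 and then 0.171.

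A choice made without an array can be read on that array, which had no part in it. Choosing without R over C array 1 gave 35 spots, and on that array 28 lay on the side chosen, with a median of 0.499 along that side. Without array 2 it was 23 of 33 spots, with a median of 0.373. Without array 3, the one of opposite dye order, only 15 of 49 spots lay on the side chosen, and the median was -0.183. All spots had 64.9%, 59.5% and 22.8% on the side of the other arrays on those 3 arrays.

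For T over R the side chosen was met by 28 of 33 spots on array 1, by 32 of 33 on array 2 and by 24 of 42 on array 3, the one of opposite dye order. The medians on the array left out were 1.36, 1.10 and 0.130. Over all spots the shares on the side of the other arrays were 62.7%, 67.9% and 27.5%. With the dye trend removed, the array left out placed 40 of 41, 30 of 32 and 40 of 42 spots on the side chosen for R over C, with medians of 0.603, 0.697 and 0.480. For T over R it was 30 of 30, 33 of 33 and 36 of 36 spots, with medians of 0.804, 0.930 and 0.730. All spots then had 59.1%, 59.7% and 65.0% on the side of the other arrays in R over C and 64.9%, 64.3% and 68.0% in T over R. The trend was estimated from all 9 arrays, the one left out included, so those arrays were not wholly independent of the choice. The chosen spots were at least 0.5 in size without the array left out, while most of all spots were smaller. The shares over all spots are therefore not a background of like size, and spots of the other pools' rules were not read in this way.

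**Figure D5:**
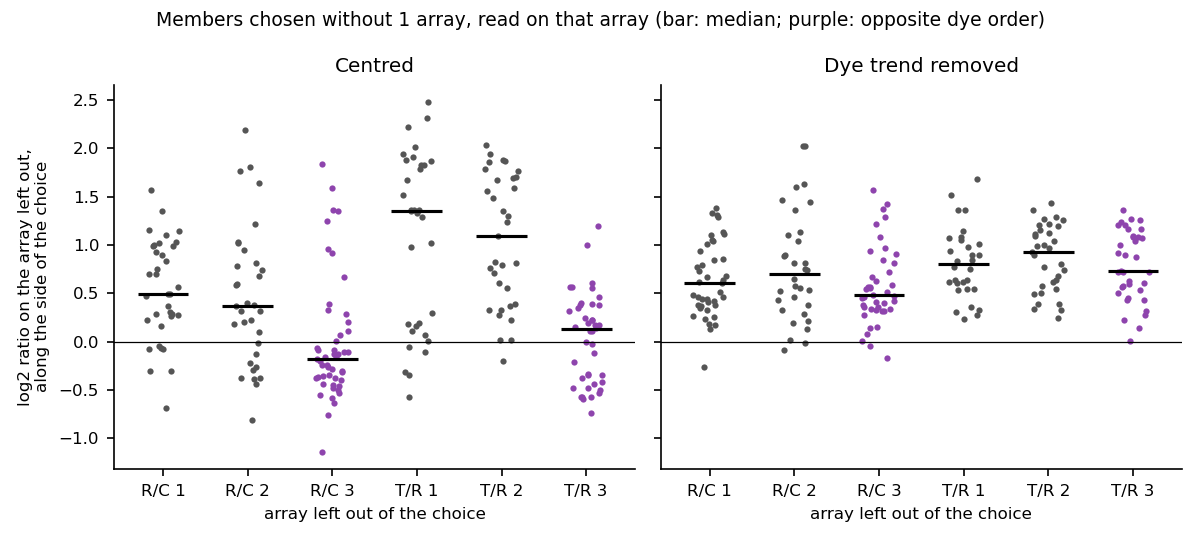
Each point is a spot chosen by the rule without the array named below it, and the vertical axis gives its log2 ratio on that array along the side of the choice; bars are medians and purple marks the array of opposite dye order. On centred arrays the medians run from -0.183 (R over C array 3) to 1.36 (T over R array 1), and with the dye trend removed from 0.480 to 0.930.

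Removing the dye trend changed which spots met the rule more than how many. It left 31 spots (0.355% of all spots), 8 in direction 1 and 23 in direction 2, of which 19 were among the 33. Of the 14 lost, 5 failed through T over C alone, 5 through R over C or T over R alone, and 4 through both. No member changed side in R over C or T over R. The members' median sizes became 0.831 in R over C, 0.883 in T over R and 0.240 in T over C, and 9 members then had a T over C of at least 0.5, up to 0.743. The share of all spots past that limit with the trend removed was not taken, so nothing is read from this count. All 12 spots gained had been short of the limit in R over C or T over R. The share of the rule's spots kept was 57.6% for the ration-fed pool, 70.2% for the control pool and 62.2% for the full-ration pool.

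The members lay above most other spots in the component that all arrays share. The mean of the 9 arrays as deposited, before any turning, had a median of -1.02 over all spots, with quartiles of -1.28 and -0.404. For the members the median was -0.383, and 31 of 33 lay above the median of all spots, in a range from -1.17 to -0.025. The median was -0.450 in direction 1 and -0.268 in direction 2. It was -0.338 for the spots that set the control pool apart and -0.278 for those of the full-ration pool, so this place was not particular to the ration-fed pool. Differences between pools cancel in this mean as far as the ratios of a spot close the loop of comparisons. The dye order in excess is Cy3 for the first-named pool in T over C and Cy5 in the other comparisons. The part of this shared component in the members' ratios was not tested beyond the removal of the trend.

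The members lay in 18 of the 48 blocks, at most 3 to a block. Row 2 of the blocks held 9 of them and row 13 held 7, where each row holds 7.69% of the spots, and the last row of blocks held 8, where it holds 8.33%. Pairs 6011307, 8011307 and 9011307 all lay in row 13 and columns 7 and 8 of a block in the first column of blocks, a place noticed after the values were seen. At that place in the other 45 blocks, R over C ran from -0.385 to 0.423, with a median of 0.049. T over R ran there from -0.437 to 0.723, with a median of 0.104. The values of the 3 pairs lay outside those ranges, but the rule chose the pairs on these ratios. Nothing about the place is therefore read from this. The spots around the 9 full pairs had median R over C values between -0.097 and 0.154. No source used here says whether the 3 pairs hold the same cDNA.

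The 9 full pairs had nearly the same profile, up to sign, across the 9 arrays once the dye trend was removed. Among the 36 combinations of 2 pairs the correlations were 0.798 to 0.998 in size, with the highest between pairs 8011307 and 9011307. The rule makes such profiles alike, and the 9 arrays share the RNA of 3 pools, so these correlations describe the choice. Outside the members, the pairs most like the mean profile of the 7 pairs were 11020405, 7030307 and 4020705, with correlations of -0.995, -0.988 and -0.984 over the 9 arrays, all of direction 2. These correlations used trend-removed values. As the mean of its spots, each missed the rule on another count. With the trend removed, pair 11020405 missed only narrowly in T over R and pair 7030307 only narrowly in R over C. Pair 11020405 had a centred R over C of -0.59 and T over R of 0.38, and -0.69 and 0.48 with the trend removed. Pair 7030307 had -0.37 and 0.79 when centred, and -0.48 and 0.83 with the trend removed. Pair 4020705 had the largest centred R over C of these, at -1.85, with a T over R of 0.74. Its T over C was -0.96 when centred and -1.11 with the trend removed.

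The limit of 0.5 falls in a continuous range of values. Just inside it were spot 12010201, with an R over C of -0.503 and a T over R of 0.64, and spot 7041002, with 0.506 and -0.51. Just outside were spot 1020111, with an R over C of -0.488 and a T over R of 0.73, and spot 2020202, with 0.76 and -0.485. The latter is the partner of a member, so in the reading of duplicates one cDNA lies on both sides of the limit.

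Gene names were available for 8 spots of 4 genes, leaving 8728 spots without a name, and none of the 8 was a member. The first pair was for col1a2, a chain of type I collagen made by fibroblasts and stellate cells. It had a T over R of 0.69 ± 0.83 (SD over 3 arrays) and an R over C of -0.18 ± 1.03. Its T over C, at 0.45 ± 0.90, was larger in size than its R over C. Each mean of this pair was smaller in size than its SD. Without the dye trend it had a T over R of 0.63 ± 0.09, an R over C of -0.30 ± 0.39 and a T over C of 0.28 ± 0.11. The signs of R over C and T over R were those of direction 2, but R over C was short of the limit. On centred values the second spot of this pair had a T over C of 0.53, a T over R of 0.61 and an R over C of -0.10. That spot met the rule that sets the full-ration pool apart. The pair for pck2, the mitochondrial enzyme that makes phosphoenolpyruvate in glucose synthesis, had an R over C of -0.01 and a T over R of 0.17. The pair for pparg, which encodes a receptor that drives fat cell formation, had -0.17 and 0.20. The pair for tap1, a peptide transporter of antigen presentation, had -0.15 and -0.18. No marker of hepatocytes, red cells or fat cells other than pparg was among the named spots, so the tissue label was not checked against defining markers.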

How the data were processed

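Liver RNA pools were compared on 9 two-colour cDNA arrays, hybridised together on slides from 1 batch with 20 ug of total RNA per labelling, per the labels' protocols. The deposited table holds 8736 spots without missing values. The deposited values were read as log2 ratios: with base 2, 1000 of 78624 values were ratios of whole numbers (denominator at most 1000, relative tolerance 2e-09), against 62 after a random shift, while base e gave 49 and 51 and base 10 gave 73 and 62. The deposited log2 values were not centred on their array medians, which ran from -1.39 to -0.586. No label names the scanner, background treatment or filters. Without intensities, dim and saturated spots stayed among the rest, and the number of arrays limits the precision.

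Array medians were subtracted, the signs were turned by the dye labels, and arrays of like dye order were averaged before the 2 orders. The dye trend of each array was a lowess curve on the 9-array mean (fraction 0.3, 3 iterations), which was subtracted. Python 3.11.15, numpy 2.4.6, pandas 2.3.3, scipy 1.17.1, statsmodels 0.14.6 and matplotlib 3.10.9 were used. The code of the rule was run on simulated data with differences larger than any of the members'. Differences of the members' size were not covered by that run. The arrays of a comparison share their RNA, so no test was made. Groups came from the dye labels of each array.

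Named spots were the full pairs (up to 5 per direction, by the smaller of the sizes of R over C and T over R), 2 spots on each side of the limit, every spot with a gene name, the member least like its partner, the member with the largest T over C, and the 3 pairs outside the members with the most similar profile. The members and lists were chosen with earlier results of these data known. Alternatives were other limits, averaging, centring and scaling, a least-squares fit of the 3 comparisons together, the mean of spot pairs, a required sign on all arrays, and leaving out each array. The combinations of the removed dye trend with an array left out, or with a required sign, were added after seeing the data.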

Additional observations from a re-analysis of the deposited data

Results flagged for a closer look

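With the dye trend removed, 12 of the 33 members had T over C on one side of 0 on every array and R over C on the other side on every array, so that the control pool lay between both transgenic pools. The same was found at 6.27% of all spots, and both ratios are part of the rule that chose the members. The difference between the ratios was not tested, and on centred arrays no member met this. In direction 1, the T over C and R over C values were -0.31 and 0.40 for spot 1040201, -0.44 and 0.43 for its partner 1040202, -0.74 and 0.49 for 1040410, and -0.23 and 0.45 for 2040709. They were -0.13 and 0.38 for spot 7041002, -0.68 and 0.94 for 12030301, and -0.52 and 0.42 for 12040212.

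In direction 2, the same values were 0.21 and -0.9998 for spot 2020205 and 0.21 and -0.92 for its partner 2020206. They were 0.24 and -0.74 for 5011205, 0.19 and -0.62 for 12010201, and 0.19 and -0.76 for 12011311.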

How the results depend on the processing

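The count of 33 members became 13 with T over C limited to 0.25, 68 with a limit of 0.4, 12 with a plain mean of the 3 arrays, and 14 with the same sign required on all arrays. It ran from 11 (without T over C array 1) to 49 (without R over C array 3) when each array was left out. It was 31 with the dye trend removed, 36 with equalised spread, 22 with a limit of 0.6, 35 with the comparisons fitted together, 32 for means of spot pairs, 34 without centring and 28 with print blocks centred. With the dye trend removed and 1 array left out it was 30 to 42. The direction 1 count of 12 became 7 with T over C limited to 0.25, 32 with a limit of 0.4, 7 with a limit of 0.6, 4 with a plain mean and 3 with the same sign required. It ran from 3 (without T over R array 3) to 42 (without R over C array 3) when each array was left out. With the dye trend removed it was 6 without R over C array 2 and 7 without T over R array 1. It was then 8 without R over C array 3 and 11 without T over R array 3, the arrays of opposite dye order. The share of partners that met the rule ran from 36.4% to 66.7% over the arrays left out, lowest without T over C array 1. The partners' median R over C of 0.721 became 0.448 with a limit of 0.4 and 1.09 with the same sign required, and ran from 0.51 to 0.98 over the arrays left out. The R over C of pair 2020205 reversed to 0.207 without R over C array 3, in a range of -0.929 to 0.207 over the arrays left out. That was the 1 reversal among the 168 R over C and T over R values that alternatives could change in the 7 pairs. The cause was not tested. T over C was left out of this count, and its sign was less stable. In pair 6011307 it went from 0.08 to -0.05 with the dye trend removed. The centred T over C was 1.06, -1.03 and -0.78 on arrays 1, 2 and 3 of that pair. It was 1.11, -0.75 and -0.50 in pair 2020205 and -0.48, 0.40 and 0.05 in pair 9041105. Without array 1 the mean therefore changes sign in these pairs. In pairs 1040201, 8011307, 9011307 and 11030511 arrays 2 and 3 had the sign of the mean. Of the 33 members, 19 were shared with the dye trend removed, 19 with equalised spread, 23 without centring, 25 for means of spot pairs, 12 with a plain mean, 30 with the comparisons fitted together and 28 with print blocks centred. No paired analysis was possible because arrays with the same number share nothing beyond the pools. A filter on dim spots was not run because intensities were not used here, and partners were not counted for means of spot pairs.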
